A study of Mus musculus with 16 samples.

Results

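The myosin motor genes described here are 9 of the 52636 gene entries in the deposited files, taken by symbol: Myo1c, Myo1e, Myo1f, Myo1g, Myo5a, Myo6, Myo9b, Myo18a and Myh9. They were measured in the mouse line RAW264.7, whose cells resemble macrophages, with a 3′ end kit that places reads near the poly(A) tail. The 16 libraries formed 4 groups of 4, each made of 2 replicates in each of 2 experiments. One group received a control siRNA, one an siRNA that targets Cebpb (which encodes the transcription factor C/EBPβ), and the other two received the same siRNAs followed by isoproterenol, an agonist of β-adrenergic receptors. The siRNA was used at 25 nM, and isoproterenol was added 24 h after transfection. The control cells were therefore transfected too, the knockdown rests on a single siRNA product, and neither dose nor duration of isoproterenol is given in the labels.

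Myosins are motor proteins that bind actin filaments and use ATP to pull on them. Class II myosins pair into filaments that contract the actin network, single-headed class I myosins tie membranes to actin, and classes V and VI carry cargo along actin in opposite directions. In macrophages, these motors serve in crawling, phagocytosis, membrane traffic and the tension of the cell cortex.

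Libraries held 9.42 to 25.2 M reads in all and 5.81 to 15.9 M on genes. Levels are given as reads per M sequenced reads (RPM), and the files show 0 for anything at or under 1 RPM, the floor. Each change is a log2 fold change with its standard error (SE) from limma, fitted over 11044 genes with experiment as a term, and it is called at a Benjamini-Hochberg adjusted p under 0.05. Cebpb itself was at 76.1 ± 11.2 RPM with control siRNA and 22.9 ± 8.83 with Cebpb siRNA, and at 92.1 ± 10.3 and 26.5 ± 2.04 when isoproterenol was added (SD, n = 4 each). Its log2 fold change was −1.72 ± 0.20 without isoproterenol (limma adjusted p = 4.94e-07) and −1.72 with it (4.57e-07). All 10 macrophage markers examined were above the floor in all 16 libraries, though Adgre1, which encodes F4/80, reached only 3.31 to 6.66 RPM. Their summed level was 2179 to 2674 RPM with control siRNA and 2736 to 2968 with Cebpb siRNA, and 2784 to 3288 and 2835 to 3474 RPM with isoproterenol. Epithelial and T and B cell markers (4 and 5 genes) were at 0 throughout. The muscle markers Acta1, Actc1 and Ckm were at 0 in all 16 libraries, and the summed level of the 7 skeletal and cardiac muscle markers was 0 to 2.68 RPM with control siRNA and 7.89 to 11.6 with Cebpb siRNA, and 0 to 2.69 and 7.93 to 12.8 with isoproterenol. Of 5 smooth muscle and fibroblast markers, 4 were at 0 throughout, and Acta2 reached at most 1.39 RPM. The part of any of these differences in the results below was not tested.

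Short sequences from the 3′ UTRs and start regions of members that changed are shown because reads come from the 3′ end and because the agents used are an siRNA against a DNA-binding factor and an agonist that raises cAMP. The first set holds the 3′ UTR sites (GENCODE vM21 transcripts, GRCm38) that contain ACTTGT, in capitals with the preceding A where present, on the coding strand. The letters came from earlier results on these same fold changes, so the matches support nothing. Myo1g (chr11:6506586-6506613, minus strand), Myo5a (chr9:75222243-75222270, plus strand) and Myo18a (chr11:77865775-77865802, plus strand) were the 3 members with a match, and the other 6, Myo6 and Myh9 among them, had none.
Myo1g: taaaggccaggACTTGTctacccttaca
Myo5a: agttcgccagAACTTGTcctcagtgagg
Myo18a: agtggtctgttACTTGTtacttctcggt
Over all 10114 tested genes with an annotated 3′ UTR, 38.1% held ACTTGT and 14.9% held AACTTGT. The shares by UTR length are taken over these same genes. Longer UTRs held it more often: ACTTGT was in 86.7% of the 445 UTRs close in length to that of Myo5a (5695 bases) and in 4.76% of the 294 close to that of Myo1g (128 bases). Among the 1042 close in length to that of Myo6 (3858 bases) the share was 70.7%. Of the 3 genes with a match, Myo1g and Myo5a fell and Myo18a rose, as described below.

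The second set holds the 300 bases around the start of Myo6, the member with the largest change, and of Myo1g, the lowest member in Cebpb siRNA cells (RefSeq, GRCm38.p6, 250 bases before to 50 after the start, on each gene's strand). They are at chr9:80164784-80165083 (plus strand) and chr11:6520909-6521208 (minus strand). Capitals mark TGACG, the core of the cAMP response element, in Myo6 and TTNNGNAA, a loose C/EBP pattern, in Myo1g.
Myo6: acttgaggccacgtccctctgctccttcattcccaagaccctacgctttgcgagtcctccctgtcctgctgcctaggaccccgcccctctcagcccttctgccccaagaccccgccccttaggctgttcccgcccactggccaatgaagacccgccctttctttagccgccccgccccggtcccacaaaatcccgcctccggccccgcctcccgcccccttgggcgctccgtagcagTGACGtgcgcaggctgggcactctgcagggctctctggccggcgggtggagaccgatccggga
Myo1g: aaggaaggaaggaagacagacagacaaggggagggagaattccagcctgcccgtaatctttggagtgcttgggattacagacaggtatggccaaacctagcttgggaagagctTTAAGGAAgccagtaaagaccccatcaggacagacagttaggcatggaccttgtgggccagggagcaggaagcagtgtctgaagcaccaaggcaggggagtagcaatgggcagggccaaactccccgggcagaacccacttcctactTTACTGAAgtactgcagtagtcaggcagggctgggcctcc
All 9 members were matched to 12 RefSeq promoters, which were searched on both strands. The full cAMP response element TGACGTCA was in 1.79% of 32851 promoters and in none of the members'. TGACG, which lies within it, was in 20.8% of promoters and, among members, in those of Myo6 (at −13 from the start) and Myo1e (at −80). The C/EBP palindrome TTGCGCAA was in 0.183% of promoters and in no member's. TTNNGNAA, which takes in the palindrome, was in 40.7% of promoters and, among members, in a promoter of Myo1c, Myo1g and Myo18a. Not every promoter of Myo1c or Myo18a held it. These are matches of letters in short windows, not measured binding sites.

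With Cebpb siRNA the myosins did not move together. Myo6 and Myh9 rose, Myo1c and Myo18a rose by less, and Myo5a and Myo1g fell, in each case both without and with isoproterenol. Myo1e passed the threshold without isoproterenol and not with it, and Myo1f and Myo9b passed in neither comparison. Without isoproterenol 7 of the 9 members were called (4 higher, 3 lower), where 61.4% of all tested genes were called, 31.5% higher and 29.8% lower. With isoproterenol 6 were called (4 higher, 2 lower), where 62.1% of all tested genes were called, 32.1% higher and 30% lower. The members' median log2 fold change was 0.03 without and −0.03 with isoproterenol, against 0.02 over all genes in both. The share of members called was thus near the background, and what the members show is their individual sizes and directions. In bulk RNA, fewer cells of a kind and less RNA per cell cannot be told apart.

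**Figure D1:**
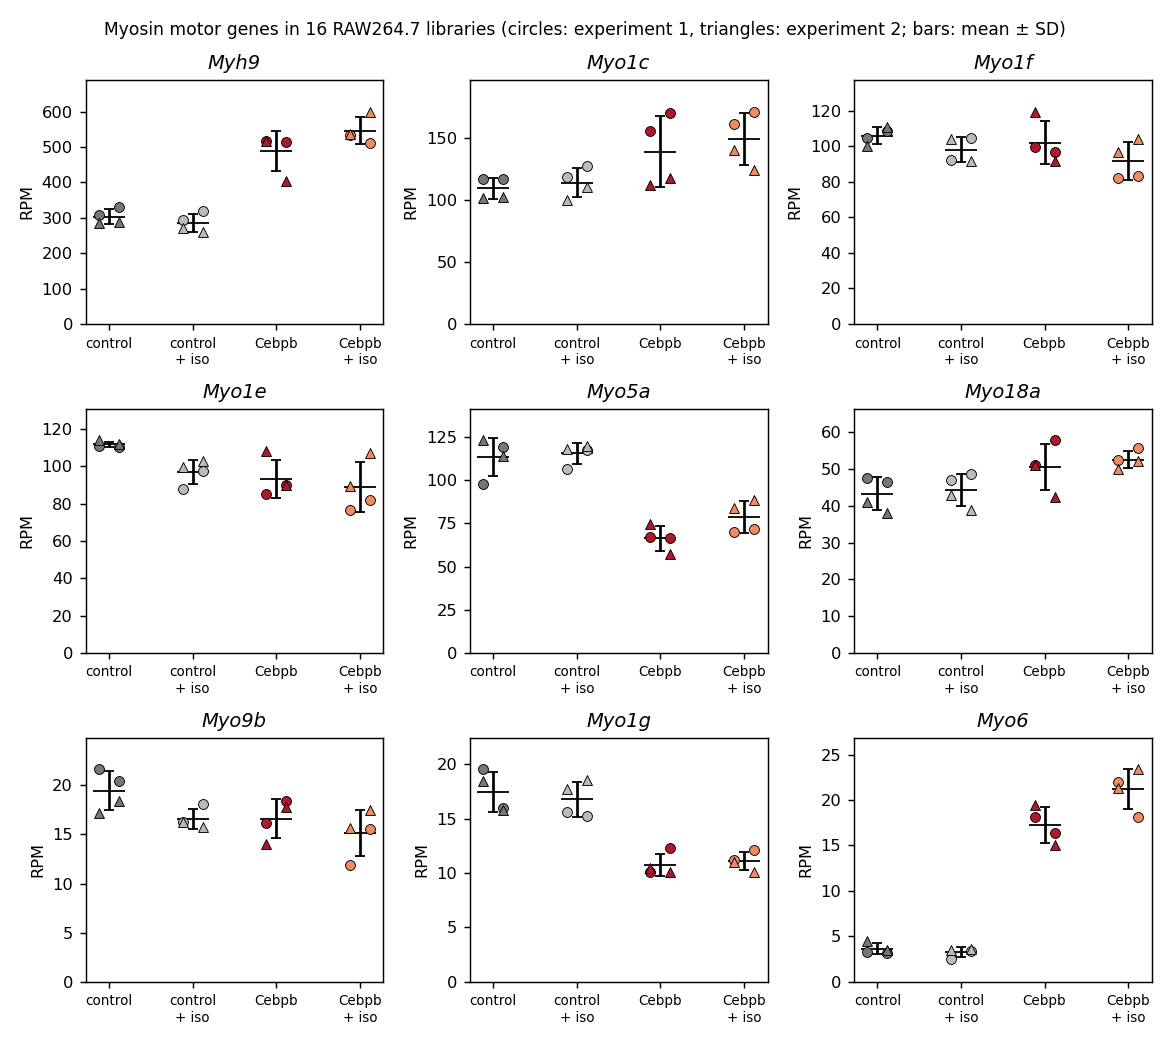
Level of each myosin in RPM (linear axes from 0) in the 16 libraries by group, with circles for experiment 1, triangles for experiment 2, and bars for mean ± SD of 4 libraries. Myo6 and Myh9 lie higher and Myo5a and Myo1g lower in every Cebpb siRNA library than in every control siRNA library.

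Myo6 encodes myosin VI, which walks toward the minus end of actin and moves endocytic vesicles and autophagosomes; its gene spans chr9:80165031-80311729 on the plus strand (ENSMUSG00000033577.18). In control siRNA libraries its level was 3.25 and 3.21 RPM in experiment 1 and 4.52 and 3.48 in experiment 2. In Cebpb siRNA libraries it was 18.2, 16.4, 19.5 and 15.1 RPM in the same order. All 4 Cebpb siRNA libraries were above all 4 controls, and the log2 fold change was 2.36 ± 0.12 (5.13-fold, limma adjusted p = 4.89e-13). With isoproterenol, control siRNA libraries held 2.47, 3.39, 3.51 and 3.63 RPM and Cebpb siRNA libraries 22.0, 18.1, 21.3 and 23.4 RPM. Again the groups did not overlap, with a log2 fold change of 2.79 ± 0.12 (6.90-fold, limma adjusted p = 3.21e-14). In experiments 1 and 2 the log2 difference was 2.47 and 2.25 without isoproterenol and 2.84 and 2.73 with it. These values rest on 50 to 491 reads per library.

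Myh9 encodes the heavy chain of non-muscle myosin IIA, the contractile motor of the cell cortex (chr15:77760587-77842175, minus strand, ENSMUSG00000022443.17). Control siRNA libraries held 307, 332, 285 and 288 RPM, and Cebpb siRNA libraries 517, 515, 517 and 405 RPM. The lowest Cebpb siRNA library, replicate 2 of experiment 2, was also the one with the fewest reads, and it still lay above every control. The log2 fold change was 0.78 ± 0.08 (limma adjusted p = 8.61e-09), or 172% of the control on the scaled values of the fit. With isoproterenol, control siRNA libraries held 293, 318, 271 and 261 RPM and Cebpb siRNA libraries 535, 511, 538 and 600 RPM. The groups were again apart. The log2 fold change was 1.01 ± 0.08 (limma adjusted p = 1.25e-10), or 201% of the control on the scaled values. Myh9 was the most abundant member in each group, with 3818 to 13005 reads per library.

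Myo18a encodes a class XVIII myosin that co-assembles with myosin II and is tied to the Golgi (chr11:77763246-77865980, plus strand). Control siRNA libraries held 47.6, 46.5, 41.0 and 38.2 RPM, and Cebpb siRNA libraries 51.2, 57.8, 51.2 and 42.5 RPM. The ranges overlapped, and within each experiment the Cebpb siRNA libraries were higher. The log2 fold change was 0.32 ± 0.07 without isoproterenol (limma adjusted p = 3.45e-04) and 0.32 with it (3.03e-04). With isoproterenol the control siRNA libraries held 47.1, 48.6, 43.1 and 38.8 RPM and the Cebpb siRNA libraries 52.5, 55.6, 49.9 and 52.3 RPM, without overlap.

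Myo5a encodes myosin Va, which carries organelles toward the plus end of actin (chr9:75071015-75223688, plus strand, ENSMUSG00000034593.16). Control siRNA libraries held 98.0, 119, 123 and 114 RPM, and Cebpb siRNA libraries 67.4, 66.3, 74.5 and 57.2 RPM. No library of one group reached the other, and the log2 fold change was −0.68 ± 0.08 (limma adjusted p = 1.41e-07). With isoproterenol the control siRNA libraries held 106, 118, 118 and 120 RPM and the Cebpb siRNA libraries 70.0, 71.8, 84.0 and 88.7 RPM. The log2 fold change was −0.49 ± 0.08 (limma adjusted p = 1.36e-05), again without overlap. By experiment it was −0.64 and −0.72 without isoproterenol, and −0.60 and −0.38 with it.

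The class I motors divided. Myo1g, a motor largely restricted to blood cells (chr11:6506548-6520965, minus strand), was at 19.5, 15.9, 18.4 and 15.8 RPM with control siRNA and at 10.1, 12.3, 10.5 and 10.1 RPM with Cebpb siRNA. The groups did not overlap, and the log2 fold change was −0.60 ± 0.10 (limma adjusted p = 1.37e-05). With isoproterenol it was at 15.6, 15.2, 17.7 and 18.6 RPM with control siRNA and 11.2, 12.1, 11.03 and 10.1 RPM with Cebpb siRNA, a log2 fold change of −0.52 (limma adjusted p = 7.42e-05). Myo1c, which links membranes to cortical actin (chr11:75650504-75673910, plus strand), went the other way, from 117, 117, 102 and 102 RPM to 156, 170, 112 and 118 RPM. The pooled ranges overlapped and experiment 2 was lower in both groups, while within each experiment every Cebpb siRNA library was above the controls. Its log2 fold change was 0.42 ± 0.06 (limma adjusted p = 2.68e-06). With isoproterenol it was at 119, 128, 99.99 and 110 RPM with control siRNA and 161, 171, 140 and 124 RPM with Cebpb siRNA, a log2 fold change of 0.45 (limma adjusted p = 9.24e-07), where the unscaled ranges overlapped and the scaled ones did not.

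Myo1e and Myo1f encode long-tailed class I myosins that act at phagocytic cups (chr9:70207350-70399766 and chr17:33555707-33607764, both plus strand). Myo1e was at 111, 110, 114 and 112 RPM with control siRNA and at 85.3, 89.9, 108 and 90.0 RPM with Cebpb siRNA. In unscaled values the groups were apart, and after scaling they overlapped. The log2 fold change was −0.17 ± 0.07 (limma adjusted p = 0.0443), with −0.28 in experiment 1 and −0.06 in experiment 2. This call was lost without the experiment term (adjusted p = 0.131), in experiment 2 alone (0.712), with replicate number as a block (0.0572), with limma run without trend or robust estimation (0.0805), and in 7 of the 16 fits that left out 1 library (0.0156 to 0.140 over all 16). Those 7 left out either control siRNA library of experiment 1 (0.124 and 0.140), either Cebpb siRNA library of experiment 1 (0.0904 and 0.0966), the second Cebpb siRNA library of experiment 2 (0.108), or the first library of either experiment with control siRNA and isoproterenol (0.05004 and 0.0513). With isoproterenol Myo1e did not pass (log2 −0.06, limma adjusted p = 0.471; difference between the 2 comparisons 0.11 ± 0.10, adjusted p = 0.951), at 96.9 ± 6.50 RPM with control siRNA and 88.8 ± 13.2 with Cebpb siRNA (SD, n = 4). Myo1f stood at 106 ± 4.74 and 102 ± 12.1 RPM without isoproterenol and at 98.2 ± 7.10 and 91.7 ± 10.7 RPM with it (SD, n = 4). Its log2 fold changes, 0.03 ± 0.08 and −0.03 ± 0.08, did not pass (limma adjusted p = 0.728 and 0.772), and their 95% intervals ran from −0.13 to 0.20 and from −0.20 to 0.14.

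Myo9b encodes a class IX myosin whose tail carries a RhoGAP domain that turns off RhoA (chr8:71272714-71360713, plus strand). It was at 19.4 ± 1.98 RPM with control siRNA and 16.6 ± 1.97 with Cebpb siRNA, and at 16.6 ± 1.02 and 15.1 ± 2.33 RPM with isoproterenol (SD, n = 4). The log2 fold changes were −0.14 ± 0.11 and −0.07 ± 0.11 (limma adjusted p = 0.309 and 0.594), with 95% intervals of −0.37 to 0.10 and −0.31 to 0.16. Haus8, on the opposite strand, overlaps the 5′ end of Myo9b and reached 48.0 RPM. No annotated gene covers the 3′ end of any member, where the kit is meant to place reads. Read positions were not examined.

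After scaling, the 4 Cebpb siRNA libraries did not overlap the 4 controls for 4 members without isoproterenol (Myo1g, Myo5a, Myo6 and Myh9), where 46.4% of all tested genes did so. With isoproterenol 6 members did so (Myo1c and Myo18a in addition), against 48.4% of all tested genes.

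**Figure D2:**
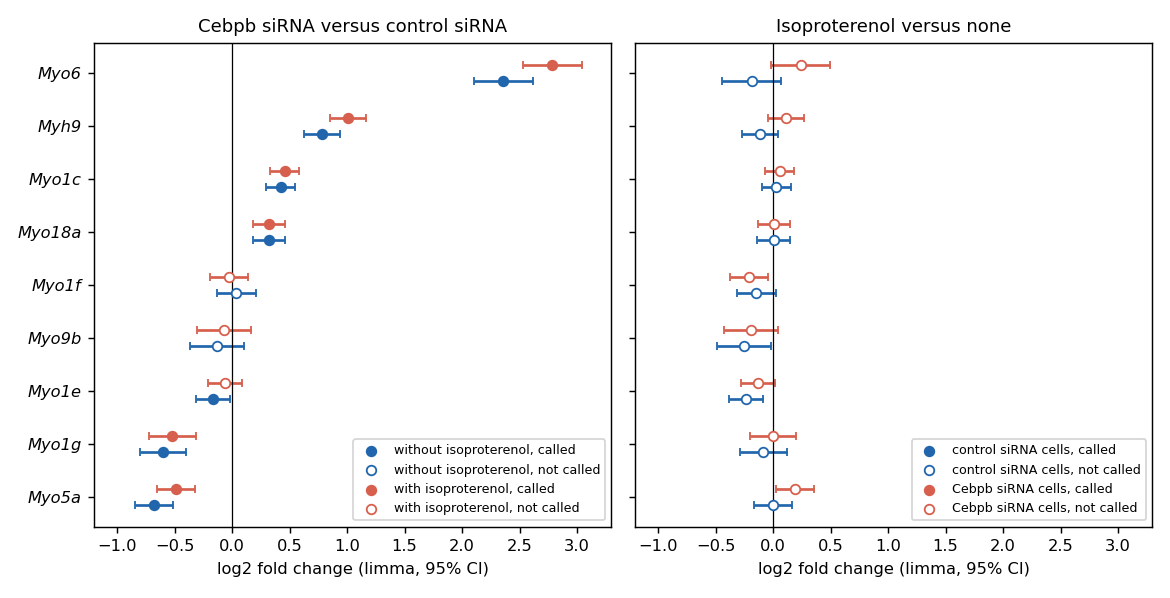
Log2 fold change of each member with its 95% interval (limma), for Cebpb siRNA against control siRNA on the left and isoproterenol against none on the right; filled points passed the adjusted threshold. Myo6 lies farthest from 0 on the left, at 2.36 and 2.79, and no point on the right is filled.

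Isoproterenol moved no member past the threshold. In control siRNA cells limma called 0 of 9 members (2 at an unadjusted p under 0.05), where 1.62% of all tested genes were called, 1.17% higher and 0.453% lower. In Cebpb siRNA cells it called 0 of 9 (2 at an unadjusted p under 0.05), against 5.48% of all tested genes, 2.83% higher and 2.64% lower. The largest difference in control siRNA cells was that of Myo9b at −0.26 ± 0.11 (limma adjusted p = 0.378), followed by Myo1e at −0.24 ± 0.07 (limma adjusted p = 0.109, unadjusted 0.00281). Myo1e was the 1 member whose control siRNA libraries with and without isoproterenol were apart, at 87.7 to 103 RPM with it and 110 to 114 without, where 5.6% of all tested genes were apart. It passed when only those 2 groups were fitted (adjusted p = 0.00973), in experiment 1 alone (0.0473) and when replicate 2 of experiment 2 with Cebpb siRNA and isoproterenol was left out (0.0378). In Cebpb siRNA cells, the largest differences were those of Myo6 (0.24 ± 0.12, limma adjusted p = 0.299), Myo1f (−0.21 ± 0.08, 0.147) and Myo5a (0.19 ± 0.08, 0.185). The 95% intervals over all members ran from −0.49 to 0.16 in control siRNA cells and from −0.43 to 0.50 in Cebpb siRNA cells. Each isoproterenol comparison shares a group of libraries with each siRNA comparison, so they are not separate support for each other. All comparisons rest on the same estimate of spread.

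Whether isoproterenol acted differently under the 2 siRNAs was tested as the difference of its effects. Limma called 0 of 9 members (2 at an unadjusted p under 0.05), where 0.226% of all tested genes were called. Those 2 were Myo6, with a difference of 0.43 ± 0.18 (unadjusted p = 0.0241, limma adjusted p = 0.673), and Myh9, with 0.23 ± 0.11 (unadjusted p = 0.0435, limma adjusted p = 0.77). None of the 4 isoproterenol effects behind these differences was called: Myo6 was at −0.19 in control and 0.24 in Cebpb siRNA cells, and Myh9 at −0.12 and 0.11. For Myh9 in Cebpb siRNA cells the experiments differed in sign (−0.02 and 0.24).

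Between the experiments, 3 members differed at the same treatment (1 higher and 2 lower in experiment 2), where 32.9% of all tested genes did, 17.2% higher and 15.7% lower. Myo1c was lower in experiment 2 by a log2 difference of −0.32 ± 0.04 (limma adjusted p = 7.24e-06) and Myo18a by −0.20 ± 0.05 (0.00334), while Myo1e was higher by 0.16 ± 0.05 (0.0203).

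Since the number of 3′ end reads is not meant to grow with transcript length, levels of different myosins were compared in RPM. How fully the reads of each gene were mapped and counted was not examined. In the deposited summaries, 19.4 to 22.3% of reads were multimapping. The order below is thus one of reads. In control siRNA cells Myh9 led at 303 ± 21.5 RPM. Myo5a, Myo1e, Myo1c and Myo1f followed at 114 ± 11, 112 ± 1.57, 109 ± 8.55 and 106 ± 4.74 RPM, and each overlapped the next. Myo18a came after them at 43.3 ± 4.49 RPM, then Myo9b and Myo1g, which overlapped, and last Myo6 at 3.61 ± 0.613 RPM (SD, n = 4 each). With Cebpb siRNA, Myh9 still led, at 488 ± 55.4 RPM, ahead of Myo1c at 139 ± 28.4, which overlapped Myo1f. Myo5a, at 66.3 ± 7.09 RPM, was above Myo18a, at 50.7 ± 6.30 RPM, within each library. Their ranges only just overlapped, since the lowest Myo5a value (57.2 RPM) was under the highest of Myo18a (57.8 RPM). Myo6, at 17.3 ± 1.95 RPM, was in the range of Myo9b and above Myo1g at 10.7 ± 1.04 RPM. The position of Myo6 thus went from last to seventh among the 9 members. With isoproterenol the lowest member was Myo6 in control siRNA cells (3.25 ± 0.529 RPM) and Myo1g in Cebpb siRNA cells (11.1 ± 0.816 RPM).

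As a share of the RPM over 38 listed myosin heavy chain genes, Myh9 made up 30.7 ± 0.832% with control siRNA and 42.6 ± 1.61% with Cebpb siRNA, and 30.3 ± 1.40% and 44.6 ± 1.38% with isoproterenol (SD, n = 4). Myo5a went from 11.6% to 5.80% without isoproterenol and from 12.3% to 6.42% with it. Myo6 went from 0.369% to 1.51% and from 0.346% to 1.73%. Shares of one total depend on each other: Myo1f held 10.8% with control siRNA and 8.94% with Cebpb siRNA although its level did not pass the test. The summed level was 984 ± 42.8 RPM with control siRNA and 1143 ± 91.9 with Cebpb siRNA, and 941 ± 49.4 and 1223 ± 56.5 RPM with isoproterenol. These are shares of reads, which need not be shares of transcripts, and they were not tested.

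**Figure D3:**
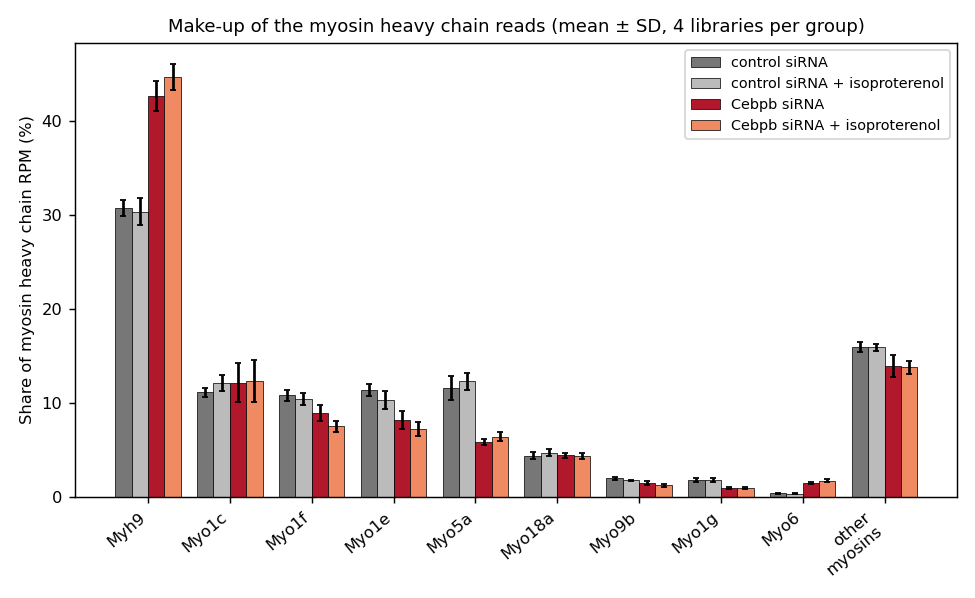
Share of the RPM of 38 listed myosin heavy chain genes taken by each member and by the other listed myosins together (percent, mean ± SD of 4 libraries, bars from 0), by group. Myh9 takes about 30.7% and 30.3% in the control siRNA groups and 42.6% and 44.6% in the Cebpb siRNA groups.

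Of the 29 other myosin heavy chain genes listed, 20 were at the floor in all 16 libraries and 8 were tested. With Cebpb siRNA 3 rose and 3 fell in both comparisons, where 61.4% and 62.1% of all tested genes were called without and with isoproterenol. Myo10, which builds filopodia, rose by a log2 of 0.51 without and 0.72 with isoproterenol (limma adjusted p = 6.13e-06 and 4.59e-08), from 56.6 ± 2.64 to 76.0 ± 9.15 RPM without isoproterenol (SD, n = 4). Myo1d, another class I myosin, rose by 0.95 and 0.57 (limma adjusted p = 1.18e-05 and 0.00258). Myh3, the embryonic skeletal heavy chain, rose by 0.41 and 0.53 at about 2 RPM, while Myh14, the non-muscle IIC heavy chain, fell by 0.55 and 0.71, Myo9a by 0.44 and 0.37, and the mitochondrial Myo19 by 0.64 and 0.54. Myh14 also fell with isoproterenol in Cebpb siRNA cells (−0.48 ± 0.12, limma adjusted p = 0.0170), where the 7 others tested did not pass. Myh10, the non-muscle IIB heavy chain, did not pass (−0.07 and 0.01), nor did Myo7a (−0.22 and −0.17). Of the 3 non-muscle class II heavy chains, Myh9 therefore rose, Myh14 fell and Myh10 did not pass, and no test compared the 3 with each other.

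Light chains and calmodulins bind the necks of myosin heavy chains. Of 6 tested genes among 16 listed, 4 rose and none fell without isoproterenol, where 31.5% of all tested genes rose and 29.8% fell. With isoproterenol 6 rose, where 32.1% of all tested genes rose and 30% fell, and the 2 comparisons had a median log2 fold change of 0.29 and 0.34 against 0.02 over all genes. Myl6, the essential light chain of non-muscle myosin II, rose from 50.0 ± 2.99 to 91.2 ± 18.7 RPM (log2 0.94, limma adjusted p = 7.62e-09) and by 0.92 with isoproterenol. The regulatory light chains Myl12a (0.79 and 0.65) and Myl12b (0.37 and 0.28) and the calmodulin gene Calm2 (0.21 and 0.39) rose too. Calm2 also rose with isoproterenol in Cebpb siRNA cells (0.24 ± 0.06, limma adjusted p = 0.0126).

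Of 22 tested regulators of RhoA and myosin II among 24 listed, 7 rose and 7 fell without isoproterenol, and 8 rose and 6 fell with it. These counts were near the share over all tested genes, of which 31.5% rose and 29.8% fell without isoproterenol and 32.1% rose and 30% fell with it. The lowered genes included Anln, which scaffolds the cytokinetic ring (−1.16 and −1.34), the citron kinase gene Cit (−1.77 and −1.33) and the GTPase gene Rhob (−1.27 and −1.38). S100a4, whose product binds the tail of myosin IIA, rose from 992 ± 64.7 to 2215 ± 445 RPM (1.23, and 1.34 with isoproterenol). Anln also fell with isoproterenol in Cebpb siRNA cells (−0.30 ± 0.07, limma adjusted p = 0.00870).

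Of 7 tested myosin VI cargo adaptors among 8 listed, 4 rose and 1 fell without isoproterenol, and 4 rose and none fell with it. Over all tested genes 61.4% were called without isoproterenol (31.5% higher, 29.8% lower) and 62.1% with it (32.1% higher, 30% lower). The number called in either direction was near that background. The median log2 fold change of these adaptors was 0.38 without and 0.37 with isoproterenol, against 0.02 over all genes in both. Tom1l2, an endosomal adaptor, rose by 0.91 and 0.93 and the endocytic adaptor Dab2 by 0.38 and 0.37, while Calcoco1 rose by 1.35 and 1.38 at low levels (1.70 ± 0.582 to 3.93 ± 0.661 RPM without isoproterenol). Gipc1 fell by 0.27 without isoproterenol and was at −0.14 with it, which did not pass. Its difference between the 2 comparisons was 0.13 ± 0.11 (limma adjusted p = 0.950). Dab2 also rose with isoproterenol, by 0.36 in control and 0.35 in Cebpb siRNA cells (limma adjusted p = 0.0015 and 9.54e-04), whereas Myo6 did not pass there.

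Of 11 tested myosin V partners among 13 listed, 5 rose and 2 fell without isoproterenol, and 6 rose and 1 fell with it. The number called, 7 in each comparison, was near the 61.4% and 62.1% of all tested genes. By direction, 31.5% of all tested genes rose and 29.8% fell without isoproterenol, and 32.1% rose and 30% fell with it. The median log2 fold change of these partners was 0.11 without and 0.29 with isoproterenol, against 0.02 over all genes in both. The vesicle GTPase genes Rab10 (1.02 and 1.03) and Rab11a (0.50 and 0.29) and the light chain gene Dynll2 (0.40 and 0.61) rose. Rab27a, which recruits myosin Va to melanosomes, fell by 0.49 without isoproterenol (limma adjusted p = 0.00981) and did not pass with it (−0.23). The difference between these 2 comparisons was 0.26 ± 0.22 (limma adjusted p = 0.942).

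Among actin and its assembly factors, 34 of 36 listed genes were tested, of which 22 rose and 5 fell without isoproterenol and 23 rose and 4 fell with it (median log2 fold change 0.31 and 0.29, against 0.02 over all genes in both). Over all tested genes 31.5% rose and 29.8% fell without isoproterenol, and 32.1% rose and 30% fell with it. The tropomyosin genes went apart, since Tpm1 rose by 0.98 and 0.99 and Tpm3 fell by 1.31 and 1.18. Vasp, which extends filaments, rose by 0.62 and 0.53, and Arpc5 of the branching Arp2/3 complex by 0.51 and 0.40.

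**Figure D4:**
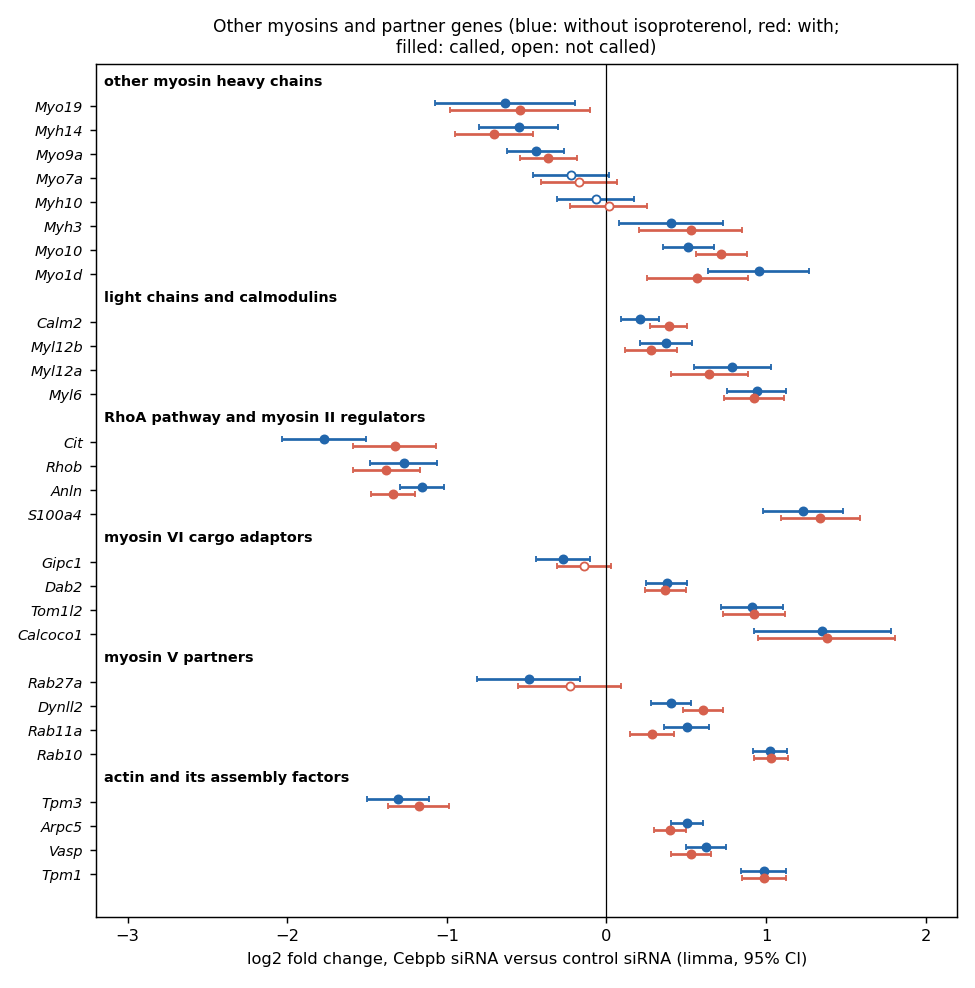
Log2 fold change for Cebpb siRNA against control siRNA with 95% intervals (limma) of other myosins and partner genes, without isoproterenol in blue and with it in red; filled points passed the adjusted threshold. Light chain genes lie right of 0, with Myl6 at 0.94 and 0.92, while Cit, Rhob, Anln and Tpm3 lie left of it.

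The genes whose scaled log2 level was most like that of Myo6 over the 16 libraries, out of 6882 genes averaging 10 RPM or more, were Ndufs1 (Pearson r = 0.995), Cysltr1 (0.991) and Glg1 (0.989). Their own log2 fold changes were smaller, at 0.74, 1.68 and 0.82 without isoproterenol. For Myh9 they were Itgb1 (0.990), the integrin β1 gene, Fopnl (0.984) and 1700025G04Rik (0.984). These r values describe libraries that share the siRNA groups and the experiments.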

How the data were processed

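Per the labels' protocols, libraries were made from total RNA with Lexogen's QuantSeq 3′ FWD kit. Per the submitters' processing notes, STAR 2.5.3a and the build GRCm38 were used. Neither labels nor notes say how reads were counted, or whether by strand. The deposited values are log2 RPM by the authors, in which 0 stands for 1 RPM or less (9 to 25 reads); this was worked out from the values. Multiplied back, 100% of them were whole reads within 0.1 read. From these, the scale of each library was set by trimmed log ratios (30% by ratio, 5% by level) and the highest floor was used for all. The 11044 genes over that floor in 4 or more libraries were fitted with limma 3.58.1 (R 4.3.3, trend and robust estimation, 4 groups plus experiment, 16 libraries, 11 residual degrees of freedom). P-values were adjusted by Benjamini-Hochberg over all tested genes. The deposited summary entries (4 per library, 5.07 to 7.61% of reads unmapped) stayed out, and 106 symbols occur more than once.

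Members, gene lists and the rule for naming genes (all members, all tested myosins, up to 4 called genes of each other list by adjusted p, and the 3 genes most like Myo6 and Myh9) were chosen with earlier results of these data known. Levels are unscaled RPM with SDs. The fit was tested on simulated data with far fewer changed genes than were called here for Cebpb siRNA. That test therefore does not show how the scaling behaves when so many genes change. Replicates differed by a chi-square of 4.92 to 13.3 per degree of freedom, above counting noise. The design text calls the replicates biological. Alternatives were other scalings, low-value filters, log2(RPM + 1), fits of fewer groups or of 1 experiment, no experiment term, a replicate block, limma without trend or robust estimation, and leaving out each library.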

Additional observations from a re-analysis of the deposited data

Results flagged for a closer look

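Dixon's criterion was applied to unscaled RPM in 36 groups of 4 libraries (9 members in 4 groups). By it, 2 groups held a library far from the others, which chance marks in about 5% of groups. Myh9 in Cebpb siRNA cells had its lowest library, replicate 2 of experiment 2, at 405 RPM, against 514.8 to 516.6 in the others. That library was also the one with the fewest reads, 9.42 M. Without it the log2 fold change of Myh9 without isoproterenol was 0.84, and the range over all leave-one-out fits was 0.73 to 0.84. Myo5a in control siRNA cells with isoproterenol had its lowest library, replicate 1 of experiment 1, at 106 RPM, against 117.8 to 119.9 in the others. After scaling, both libraries lay nearer the others. The Myh9 library was at 439 RPM, with 517 to 551 in the others, and the Myo5a library at 105, with 111 to 114 in the others. The criterion was not applied to scaled values.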

How the results depend on the processing

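Over 1206 recomputed member values, 1139 kept their direction and side of the threshold, 11 lost their call (all Myo1e, Cebpb siRNA without isoproterenol), 4 gained one, 52 changed sign with neither fit called, and 0 reversed. Members called for Cebpb siRNA numbered 6 to 7 without and 6 with isoproterenol when 1 library was left out. The replicate block (replicate numbers did not pair: 3 of 12 pair correlations over 0.1, from −0.192 to 0.232) called 6 and 6 members, and 6704, 6769, 153, 543 and 27 genes over all. Genes called for isoproterenol in control siRNA cells (179) were 412 with only those groups (1 member called), 46 without the experiment term, 108 in experiment 1 alone (1 member), 19 in experiment 2 alone, 112 without trend or robust estimation, and 99 to 248 (0 to 1 members) with 1 library left out. The count fell more than 1.5-fold without control siRNA replicate 1 of experiment 1 (99) or replicate 2 of experiment 2 (112), or without replicate 2 of experiment 1 (114) or replicate 1 (111) or 2 (108) of experiment 2 with control siRNA and isoproterenol. In Cebpb siRNA cells (605) they were 252 with only those groups, 197 without the experiment term, and 250 and 145 in experiments 1 and 2 alone. For the difference (25) they were 15 at a mean of at least 10 RPM, 10 without the experiment term, 12 and 2 by experiment, and 18 to 29 with 1 library left out; fitting only the groups compared is the same fit there. The cause of these shifts was not tested. Without scaling, calls split 2726 higher and 3917 lower for Cebpb siRNA without isoproterenol (3482 and 3294 scaled), 2976 and 3761 with it (3546 and 3312), 145 and 27 for the agonist in control siRNA cells (129 and 50), 455 and 153 in Cebpb siRNA cells (313 and 292), and 13 and 8 for the difference (12 and 13). Myo1f with isoproterenol passed for Cebpb siRNA in experiment 1 alone (−0.18, limma adjusted p = 0.0454). Depth limits genes near 1 RPM, where differences are understated, and all members were above it in all 16 libraries.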
